A study of Homo sapiens with 9 samples.

Results

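The genes described here are ADM, VEGFA, P4HA1, P4HA2, NDRG1, BNIP3, BNIP3L, CA9, PDK1 and HIF1A, which are known as genes induced by low oxygen, apart from HIF1A, the gene of an oxygen-regulated transcription factor. The list itself was chosen with earlier results of these data known, so its counts beside the shares of all probe sets are description only. Every probe set whose array annotation gave exactly 1 symbol from this list of 10 was taken, whatever its values. That gave 14 probe sets of 9 genes, out of 22215 probe sets and 11963 named genes on the arrays. No probe set named CA9 alone, so CA9, a carbonic anhydrase of the cell surface, was not analysed here. VEGFA had 4 probe sets, BNIP3 and BNIP3L had 2 each and the other genes had 1. Probe sets of 1 gene read the same mRNA pool and are not independent of each other.

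The cells were HepG2, an established human hepatoma line with many hepatocyte functions, held in medium whose serum had been stripped of thyroid hormone. They received 10 nM of triiodothyronine (T3, the active thyroid hormone), 10 nM of GC-1 or vehicle, and RNA was taken at 24 h, with 3 Affymetrix arrays a group. GC-1 (sobetirome) is a synthetic agonist that prefers the beta form of the thyroid hormone receptor. It keeps the paired rings of T3 but has no iodine, carrying methyl and isopropyl groups at those places, with a carbon bridge between the rings and an oxyacetic acid side chain. The line is the only cell model, nothing in the labels ties replicates to separate cultures, so the p-values reflect how far these arrays scatter, and that scatter may be only technical. Neither oxygen tension nor any protein was measured.

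Cells sense oxygen through the hypoxia-inducible factors (HIFs). In oxygen, prolyl hydroxylases (the EGLN proteins) mark the HIF alpha subunits, which VHL then sends to degradation. At low oxygen the alpha subunits HIF1A and EPAS1 persist, pair with ARNT and bind short DNA elements near their target genes. HIF1A is controlled mainly at the protein level, so its mRNA is a separate readout from the activity of the factor. The targets cover vessel growth and tone (VEGFA, ADM), collagen hydroxylation (P4HA1, P4HA2), turnover of mitochondria (BNIP3, BNIP3L) and a brake on pyruvate oxidation (PDK1). In liver this system also takes part in erythropoietin production and in the switch between oxidative and glycolytic use of fuel.

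Values are log2 signals made by RMA, in which 1 unit is a 2-fold difference. They came from array medians of 7.01 to 7.06. KLF9, a direct thyroid hormone target used here as a check of the response, stood 1.17 ± 0.10 (SE) log2 units above vehicle with T3 and 1.13 ± 0.10 with GC-1 (adjusted p = 4.75e-05 and 0.000105, limma). All 10 measured hepatocyte markers lay among the brightest 25% of probe sets, with ALB at 14.44 and AFP at 14.35. Of these, APOB rose by 0.21 with T3 (adjusted p = 0.0419), and FGB rose by 0.69 with T3 and 0.65 with GC-1 (adjusted p = 2.13e-05 and 5.62e-05). Markers of other cells included PTPRC at 4.93 and CDH5 at 4.96, among the dimmest probe sets, while LYZ at 12.50 and COL1A1 at 9.15 were bright in all groups. CD3E at 7.06 and DCN at 7.13 lay in the middle of the range. The cholangiocyte markers SOX9 at 11.11 and KRT19 at 10.31 were also among the brightest 25% of probe sets, with KRT7 at 5.74. Of the 3 leukocyte, 4 endothelial and 5 fibroblast markers measured 0 passed the test with either ligand in limma, and KRT19, 1 of 3 cholangiocyte markers, fell by 0.25 with T3 and by 0.28 with GC-1 (adjusted p = 0.0425 and 0.0410). The part of these shifts in the results below was not tested. The interquartile range of the signals was 2.88 to 2.99 on T3 arrays, 2.83 to 2.85 on GC-1 arrays and 2.87 to 2.88 on vehicle arrays. In such bulk RNA, fewer cells of a type and less RNA per cell cannot be told apart.

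The core of the DNA element that HIFs bind is ACGTG or GCGTG. RefSeq promoter windows of GRCh38.p14, from 250 bases before to 50 bases after the annotated start, were found for 7 of the 10 genes, 9 windows in all, and were searched on both strands. Either core was present in 48.4% of all 35116 windows, so a match in a member is common. The windows of ADM, P4HA1, BNIP3 and P4HA2 are shown because these genes rose with T3 and range from 0 to 6 matches. The windows are chr11:10304823-10305122 (plus strand) for ADM, chr10:73096817-73097116 (minus strand) for P4HA1, chr10:131981874-131982173 (minus strand) for BNIP3 and chr5:132227042-132227341 (minus strand) for P4HA2. Each reads 5′ to 3′ along its gene, and capitals mark the core motifs on either strand.
ADM: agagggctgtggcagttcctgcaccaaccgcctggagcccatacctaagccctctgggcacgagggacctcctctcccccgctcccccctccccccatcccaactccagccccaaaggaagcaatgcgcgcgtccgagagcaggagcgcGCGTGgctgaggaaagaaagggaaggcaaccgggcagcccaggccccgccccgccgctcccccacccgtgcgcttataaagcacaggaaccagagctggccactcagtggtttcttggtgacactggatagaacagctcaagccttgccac
P4HA1: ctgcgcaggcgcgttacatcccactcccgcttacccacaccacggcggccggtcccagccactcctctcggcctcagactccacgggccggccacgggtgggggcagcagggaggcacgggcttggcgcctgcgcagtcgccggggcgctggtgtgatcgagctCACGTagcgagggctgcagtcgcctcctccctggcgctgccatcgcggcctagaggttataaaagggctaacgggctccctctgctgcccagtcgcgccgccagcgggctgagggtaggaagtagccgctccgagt
BNIP3: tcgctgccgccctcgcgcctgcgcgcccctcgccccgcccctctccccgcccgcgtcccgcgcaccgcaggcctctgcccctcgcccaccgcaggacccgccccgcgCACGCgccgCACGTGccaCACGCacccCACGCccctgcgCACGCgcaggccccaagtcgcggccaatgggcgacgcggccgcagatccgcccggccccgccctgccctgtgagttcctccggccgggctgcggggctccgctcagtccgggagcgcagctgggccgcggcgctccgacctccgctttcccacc
P4HA2: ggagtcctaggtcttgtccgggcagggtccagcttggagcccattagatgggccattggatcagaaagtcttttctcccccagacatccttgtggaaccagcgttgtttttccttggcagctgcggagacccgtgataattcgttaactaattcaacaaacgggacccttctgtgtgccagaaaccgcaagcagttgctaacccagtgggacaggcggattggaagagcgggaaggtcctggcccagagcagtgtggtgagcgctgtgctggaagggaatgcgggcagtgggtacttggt
ADM held 1 GCGTG, starting 101 bases before the start site, and P4HA1 held 1 ACGTG, read on the opposite strand and placed 86 bases before it. BNIP3 held 6 matches that began between 143 and 104 bases before its start. Of these, 2 overlap in a palindrome that reads ACGTG on both strands. Windows with at least 6 matches made up 0.923% of the total. P4HA2 had 0 matches in this window. PDK1 had 2 ACGTG in the later of its 2 windows, HIF1A had 1 GCGTG in the earlier of its 2, and CA9 had 1 ACGTG in its window. The half-site of thyroid hormone receptors, AGGTCA, was in none of the 9 windows, against 13.8% of all windows. These matches describe the letters and say nothing about binding.

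**Figure D1:**
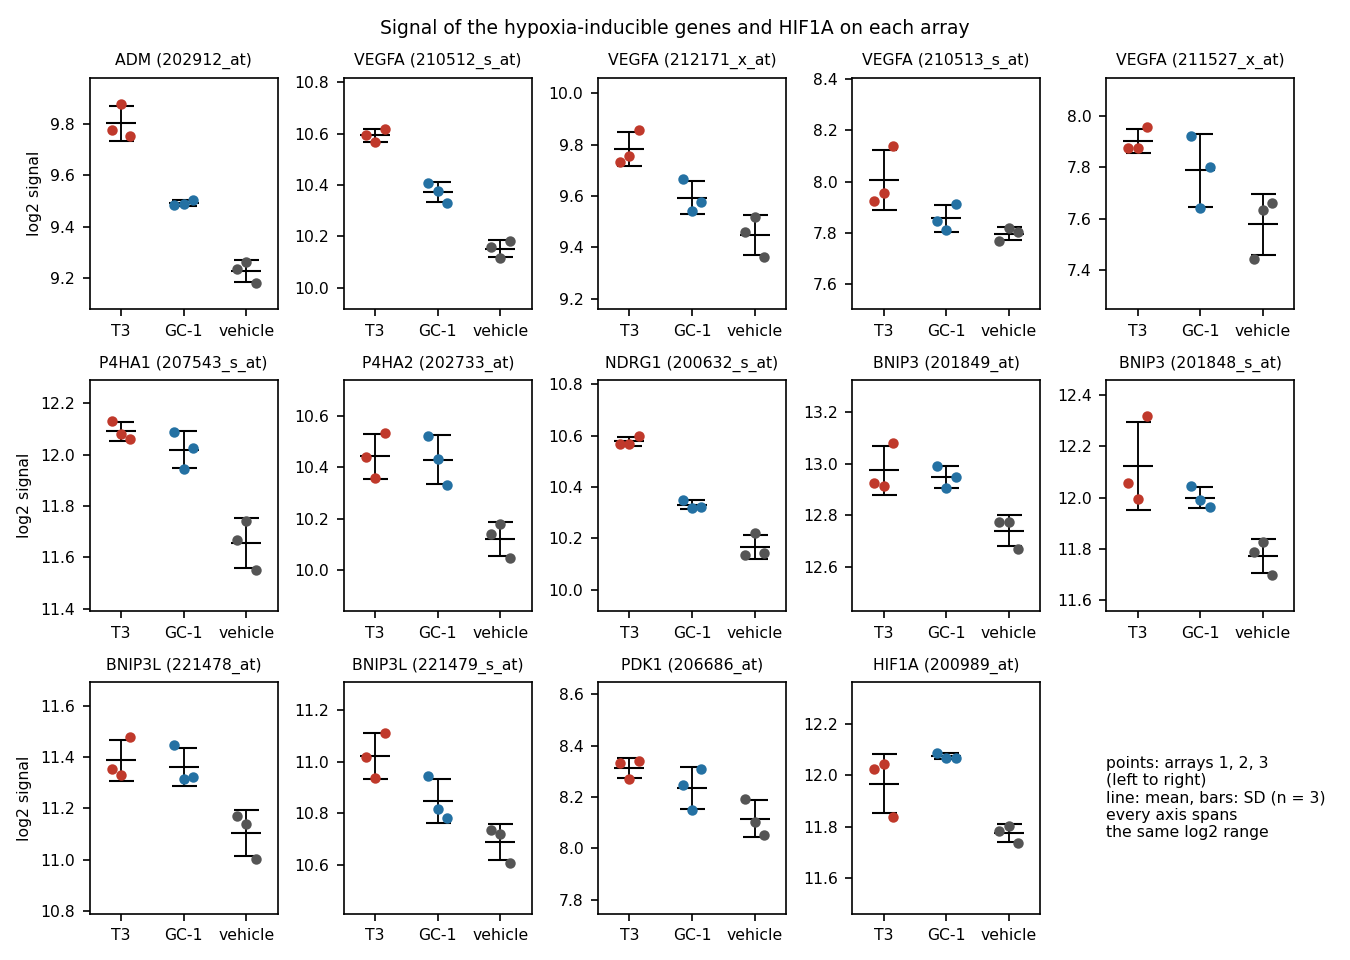
Log2 signal (vertical axis, every panel spanning the same range) of each of the 14 probe sets on the 9 arrays, in T3, GC-1 and vehicle groups. Points are arrays 1, 2 and 3 from left to right within a group, and the line and bars are the mean and SD (n = 3). In ADM, the VEGFA probe set 210512_s_at and NDRG1 the groups form 3 separate steps, while in HIF1A the GC-1 arrays sit together at the top and T3 replicate 3 lies below its group.

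The comparison of T3 with vehicle asks which of these genes the hormone changed. Under T3, 11 of the 14 probe sets rose and none fell (adjusted p under 0.05 in limma, Benjamini-Hochberg over all probe sets), where 4.00% of all probe sets rose, 1.50% fell and 5.50% passed in either direction. They belong to 7 of the 9 genes: ADM, VEGFA, P4HA1, P4HA2, NDRG1, BNIP3 and BNIP3L. PDK1 and HIF1A did not pass. All 3 T3 arrays lay above all 3 vehicle arrays in 14 of 14 probe sets, against 12.5% of all probe sets. The median difference over the 14 was 0.33 log2 units, beside -0.01 over all probe sets, and the members ran from 0.19 to 0.58.

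Fewer of them passed with GC-1. With GC-1 5 probe sets rose and none fell, where 1.81% of all probe sets rose, 0.986% fell and 2.80% passed in either direction. They belong to ADM, VEGFA, P4HA1, P4HA2 and HIF1A. The 3 GC-1 arrays lay above the 3 vehicle arrays in 11 of the 14 probe sets, against 10.8% of all probe sets. The exceptions were the VEGFA probe sets 210513_s_at and 211527_x_at, and PDK1. The median difference was 0.22, beside 0.00 in size over all probe sets, and the range was 0.06 to 0.36. Both comparisons use the same 3 vehicle arrays, so their values are set side by side below. Across these arrays, 4 probe sets passed with both ligands, 7 with T3 alone and 1, HIF1A, with GC-1 alone, and the difference between the ligands is tested separately. All 6 ligand arrays stood above all 3 vehicle arrays in 11 of the 14 probe sets, against 6.23% of all probe sets.

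**Figure D2:**
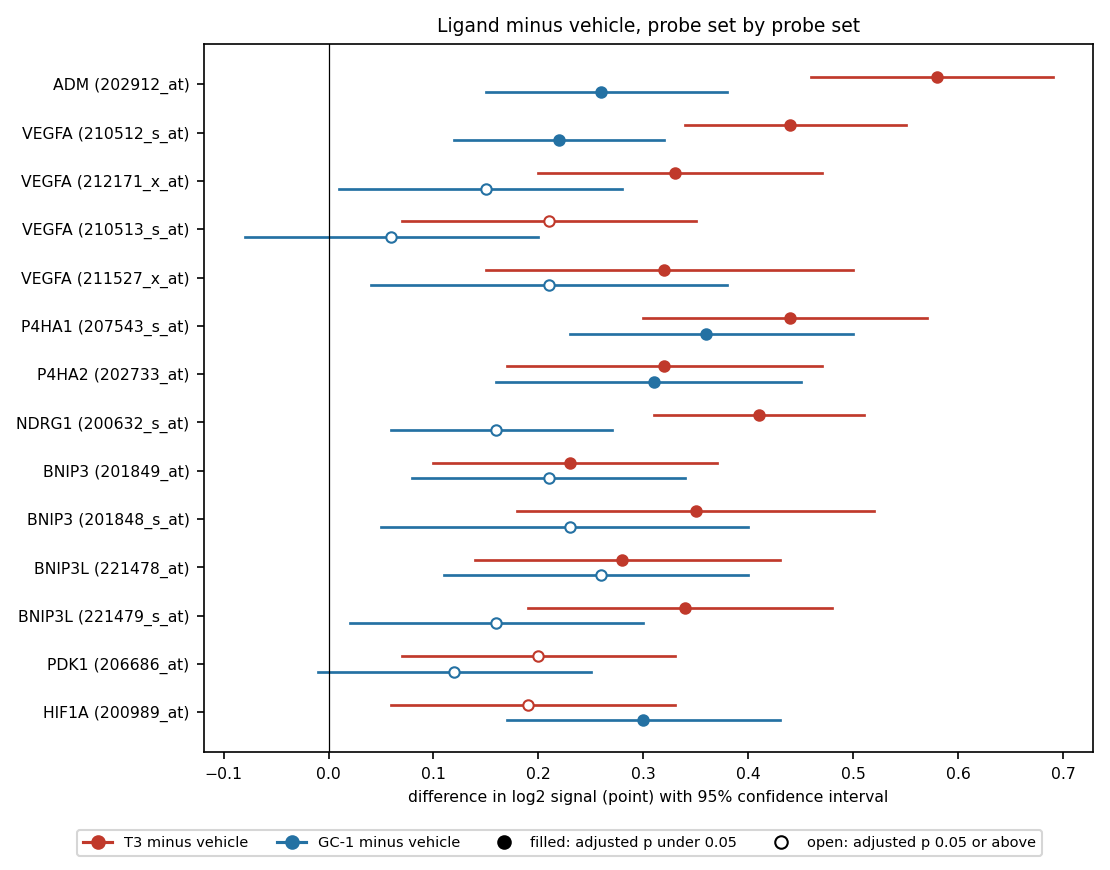
Difference in log2 signal from vehicle (horizontal axis) for each probe set, T3 above and GC-1 below, with 95% confidence intervals from limma (n = 3 arrays a group). Filled points passed at an adjusted p under 0.05. All 28 points lie above 0. The T3 points of ADM, VEGFA (210512_s_at) and NDRG1 stand clear of their GC-1 points, while those of P4HA2 and BNIP3L (221478_at) nearly coincide.

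ADM encodes adrenomedullin, a secreted peptide that widens blood vessels. Its probe set 202912_at read 9.78, 9.88 and 9.75 in T3 cells, 9.48, 9.49 and 9.50 in GC-1 cells and 9.24, 9.26 and 9.18 in vehicle cells. The 3 groups did not overlap, with GC-1 between T3 and vehicle. ADM rose 1.49-fold with T3 (0.58 ± 0.05 SE, adjusted p = 5.61e-05), the largest change of the 14 probe sets in limma and rank 128 by size among all 22215. With GC-1 it rose 1.20-fold (0.26 ± 0.05, adjusted p = 0.0201). The GC-1 call did not hold without any 1 of the GC-1 or vehicle arrays (adjusted p up to 0.0999).

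VEGFA encodes the main growth factor for vessel endothelium. Its brightest probe set, 210512_s_at, read 10.59, 10.57 and 10.62 in T3 cells, 10.41, 10.38 and 10.33 in GC-1 cells and 10.16, 10.12 and 10.18 in vehicle cells. Again the 3 groups were separate and in the same order as in ADM. The difference from vehicle was 0.44 ± 0.05 with T3 (1.36-fold, adjusted p = 0.000260) and 0.22 ± 0.05 with GC-1 (1.17-fold, adjusted p = 0.0328). The GC-1 call ended without any 1 of the GC-1 or vehicle arrays (adjusted p = 0.0729 to 0.141).

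The other VEGFA probe sets gave smaller differences. Probe set 212171_x_at, averaging 9.61, differed by 0.33 with T3 (adjusted p = 0.00771) and by 0.15 with GC-1 (adjusted p = 0.262). The dimmer 210513_s_at, at 7.89, differed by 0.21 with T3 (adjusted p = 0.0825) and 0.06 with GC-1 (adjusted p = 0.713). Of these 4 probe sets it was the one that did not pass with T3. It passed in 2 of 15 alternatives, trend and robust moderation and the interquartile range as a covariate (adjusted p = 0.0474 and 0.0145). The dimmest, 211527_x_at, at 7.76, differed by 0.32 with T3 (adjusted p = 0.0384) and 0.21 with GC-1 (adjusted p = 0.214), and its T3 call ended without GC-1 replicate 3 or any T3 or vehicle array (adjusted p = 0.0585 to 0.143). The names ending in _x_at and _s_at mark probe sets that can bind several transcripts, so the 4 may not read the same mix of VEGFA isoforms.

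The measured receptors and related growth factors of VEGF and adrenomedullin gave no calls. Of 11 measured partners of VEGF and adrenomedullin 0 passed in limma with T3, 4 at an unadjusted p under 0.05, and 0 passed with GC-1, 0 at an unadjusted p under 0.05. Over all genes, each read from 1 probe set, 6.22% passed with T3 and 3.26% with GC-1, and at an unadjusted p under 0.05 the shares were 22.4% and 17.0%. With so few partners, 0 passing is close to the shares of all genes that passed. Across the alternative settings at most 1 was higher and 1 lower with T3. The VEGF receptors FLT1 and KDR averaged 5.96 and 5.37 in T3 cells, 5.93 and 5.39 in GC-1 cells and 5.77 and 5.29 in vehicle cells. The adrenomedullin receptor CALCRL averaged 5.65, 5.76 and 5.78 in the same groups. These signals lie in the dim range, where RMA compresses differences.

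P4HA1 and P4HA2 encode alternative catalytic subunits of collagen prolyl 4-hydroxylase, which stabilizes the collagen triple helix. P4HA1 (207543_s_at) read 12.13, 12.08 and 12.06 in T3 cells, 12.09, 11.94 and 12.03 in GC-1 cells and 11.67, 11.74 and 11.55 in vehicle cells. Both ligand groups overlapped and lay above vehicle. P4HA1 rose 1.35-fold with T3 (0.44 ± 0.06, adjusted p = 0.00192) and 1.29-fold with GC-1 (0.36 ± 0.06, adjusted p = 0.00935). That GC-1 difference was the largest of the 14, and its call ended without GC-1 replicate 1 (adjusted p = 0.0525).

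P4HA2 (202733_at) read 10.44, 10.36 and 10.53 in T3 cells, 10.52, 10.43 and 10.33 in GC-1 cells and 10.14, 10.18 and 10.05 in vehicle cells. T3 and GC-1 arrays were interleaved and all stood above vehicle. P4HA2 rose 1.25-fold with T3 (0.32 ± 0.07, adjusted p = 0.0170) and 1.24-fold with GC-1 (0.31 ± 0.07, adjusted p = 0.0332). Its T3 call did not hold without T3 replicate 1 (adjusted p = 0.0512), vehicle replicate 1 (adjusted p = 0.0550) or vehicle replicate 3 (adjusted p = 0.0812). Its GC-1 call did not hold without GC-1 replicate 1 or 2 or any vehicle replicate (adjusted p = 0.0738 to 0.148).

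The beta subunit P4HB, which completes the same enzyme, averaged 11.66 in T3 cells, 11.60 in GC-1 cells and 11.55 in vehicle cells (difference 0.10 and 0.05, adjusted p = 0.460 and 0.810). Of the 6 measured partners in collagen hydroxylation 0 passed in limma with T3, 1 at an unadjusted p under 0.05, and 0 with GC-1, also 0 at an unadjusted p under 0.05. With so few genes these counts are close to the shares over all genes, 6.22% and 3.26% passing and 22.4% and 17.0% at an unadjusted p under 0.05. The 15 alternative settings called 0 of them with either ligand. LOX and PLOD1, collagen cross-linking and lysyl hydroxylating enzymes of the wider hypoxia list below, rose with T3 (0.93 and 0.43, adjusted p = 2.96e-06 and 0.00367). With GC-1 they differed by 0.73 and 0.27 (adjusted p = 2.87e-05 and 0.0692). Their relatives LOXL2, PLOD2 and PLOD3 differed by 0.09, 0.08 and -0.07 with T3 (adjusted p = 0.613, 0.507 and 0.480).

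NDRG1 encodes a cytoplasmic protein of the stress response that is widely used as a hypoxia marker. Its probe set 200632_s_at read 10.57, 10.57 and 10.60 in T3 cells, 10.35, 10.32 and 10.32 in GC-1 cells and 10.13, 10.22 and 10.14 in vehicle cells. The groups again formed 3 steps with little spread within each. NDRG1 rose 1.33-fold with T3 (0.41 ± 0.05, adjusted p = 0.000401). With GC-1 the difference was 0.16 ± 0.05 (1.12-fold, adjusted p = 0.102). The GC-1 difference of NDRG1 passed with quantile normalization, with trend and robust moderation and with array weights (adjusted p = 0.0489, 0.0158 and 0.0389).

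BNIP3 and BNIP3L encode outer-membrane receptors that mark mitochondria for removal by autophagy. BNIP3 was the brightest member. Probe set 201849_at read 12.93, 12.91 and 13.08 in T3 cells, 12.99, 12.90 and 12.95 in GC-1 cells and 12.78, 12.77 and 12.67 in vehicle cells. Probe set 201848_s_at read 12.06, 11.99 and 12.32 in T3 cells, 12.04, 11.99 and 11.96 in GC-1 cells and 11.79, 11.83 and 11.70 in vehicle cells. In both probe sets the 6 ligand arrays lay above the vehicle arrays, and T3 replicate 3 was the highest array.

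With T3 BNIP3 differed by 0.23 ± 0.06 (201849_at, adjusted p = 0.0456) and 0.35 ± 0.08 (201848_s_at, adjusted p = 0.0256), and both passed. Without T3 replicate 3 the differences were 0.18 (adjusted p = 0.0776) and 0.25 (adjusted p = 0.0292). The call of 201849_at held without 1 of the 9 arrays, T3 replicate 2, and ended without each of the other 8. That of 201848_s_at ended without any 1 vehicle array (adjusted p = 0.0536 to 0.109). The GC-1 differences were 0.21 ± 0.06 and 0.23 ± 0.08 (adjusted p = 0.103 and 0.177).

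BNIP3L probe set 221478_at read 11.35, 11.33 and 11.48 in T3 cells, 11.45, 11.31 and 11.32 in GC-1 cells and 11.17, 11.14 and 11.00 in vehicle cells. Probe set 221479_s_at read 11.02, 10.94 and 11.11 in T3 cells, 10.94, 10.81 and 10.78 in GC-1 cells and 10.74, 10.72 and 10.61 in vehicle cells. All ligand arrays exceeded the vehicle arrays in both. BNIP3L rose by 0.28 ± 0.07 and 0.34 ± 0.07 with T3 (adjusted p = 0.0303 and 0.0121). The GC-1 differences were 0.26 ± 0.07 and 0.16 ± 0.07 (adjusted p = 0.0683 and 0.258). The T3 call of 221478_at ended without T3 replicate 1 or 3 or any vehicle replicate (adjusted p = 0.0524 to 0.123), and that of 221479_s_at without vehicle replicate 3 (adjusted p = 0.0616).

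Of 8 other measured genes of mitophagy, 2 rose with T3 and 2 with GC-1, and none fell, where 4.51% of all genes rose with T3 and 2.10% with GC-1. Across the alternatives 1 to 4 rose with T3 and 0 to 3 with GC-1. GABARAPL1, a protein that couples cargo receptors to the autophagosome, rose by 0.25 with T3 (adjusted p = 0.0240) and 0.30 with GC-1 (adjusted p = 0.0148), calls that held in 10 and 11 of 15 alternatives. Its other probe set, 208868_s_at, gave 0.30 with T3 (adjusted p = 0.0281) and 0.14 with GC-1 (adjusted p = 0.364). OPTN, another cargo receptor, rose by 0.32 with T3 (adjusted p = 0.00227) and differed by 0.15 with GC-1 (adjusted p = 0.145), whereas its probe set 202073_at differed by 0.17 with T3 (adjusted p = 0.203) and 0.16 with GC-1 (adjusted p = 0.294). The probe sets of BCL2L1, an antiapoptotic relative of BCL2, disagreed on which ligand passed. The brightest, 212312_at, rose by 0.24 with GC-1 (adjusted p = 0.0309, held in 8 of 15 alternatives) and differed by 0.18 with T3 (adjusted p = 0.0615). The others, 215037_s_at and 206665_s_at, rose by 0.32 and 0.34 with T3 (adjusted p = 0.0425 and 0.0449) and differed by 0.22 and 0.26 with GC-1 (adjusted p = 0.189 and 0.158). The kinase PINK1 differed by -0.06 and 0.14 (adjusted p = 0.687 and 0.363).

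PDK1 encodes a kinase that inhibits pyruvate dehydrogenase and so holds pyruvate out of the mitochondrial cycle. Its probe set 206686_at read 8.33, 8.27 and 8.34 in T3 cells, 8.24, 8.15 and 8.31 in GC-1 cells and 8.19, 8.10 and 8.05 in vehicle cells. T3 arrays stood above vehicle, whereas GC-1 arrays overlapped both other groups. The differences were 0.20 ± 0.06 with T3 (adjusted p = 0.0791) and 0.12 ± 0.06 with GC-1 (adjusted p = 0.359). The T3 difference passed in 1 of 15 alternatives, trend and robust moderation (adjusted p = 0.0412). Of 8 further genes of pyruvate dehydrogenase and its kinases and phosphatases, 0 passed in limma with T3, 1 at an unadjusted p under 0.05, and 0 with GC-1, 0 at an unadjusted p under 0.05. Over all genes 6.22% passed with T3 and 3.26% with GC-1, and 22.4% and 17.0% had an unadjusted p under 0.05, so these counts are near or below the background. Across the alternatives 1 of them was called lower with T3 at most. PDK2, PDK3 and PDK4 differed by 0.08, 0.03 and -0.05 with T3 and by 0.09, 0.07 and -0.02 with GC-1 (adjusted p = 0.604 or above).

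HIF1A encodes the oxygen-regulated subunit of HIF-1. Its probe set 200989_at read 12.02, 12.04 and 11.84 in T3 cells, 12.09, 12.07 and 12.07 in GC-1 cells and 11.78, 11.80 and 11.73 in vehicle cells. GC-1 arrays had an SD of 0.01 and lay above every T3 array, and T3 replicate 3 stood apart below the other T3 arrays. HIF1A rose 1.23-fold with GC-1 (0.30 ± 0.06, adjusted p = 0.0236). With T3 the difference was 0.19 ± 0.06 (1.14-fold, adjusted p = 0.0918), and without T3 replicate 3 it was 0.26 (adjusted p = 0.0108). The T3 difference also passed with trend and robust moderation (0.19, adjusted p = 0.00649) and with array weights (0.24, adjusted p = 0.0184). With the interquartile range as a covariate it was 0.06 (adjusted p = 0.578). The GC-1 call ended without any 1 of the GC-1 or vehicle arrays (adjusted p = 0.0699 to 0.106).

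Other parts of the HIF system were read from a list of 14 genes, of which 13 were measured. With each ligand 2 rose and none fell, EPAS1 and CITED2, where with T3 4.51% of genes rose, 1.71% fell and 6.22% passed in either direction, and with GC-1 2.10% rose, 1.16% fell and 3.26% passed. EPAS1 encodes the alpha subunit of HIF-2, prominent in liver and vessel cells. Its probe set 200878_at read 10.97, 10.97 and 10.84 in T3 cells, 10.80, 10.78 and 10.80 in GC-1 cells and 10.43, 10.42 and 10.43 in vehicle cells, so the groups did not overlap. EPAS1 rose 1.41-fold with T3 (0.50 ± 0.05, adjusted p = 0.000177) and 1.29-fold with GC-1 (0.37 ± 0.05, adjusted p = 0.00264). Its dimmer probe set 200879_s_at differed by 0.32 with T3, which passed, and by 0.23 with GC-1 (adjusted p = 0.0186 and 0.107).

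CITED2 encodes a protein that competes with HIF alpha subunits for their coactivators. It read 9.57, 9.41 and 9.60 in T3 cells, 9.30, 9.38 and 9.35 in GC-1 cells and 9.14, 9.01 and 9.06 in vehicle cells. It rose 1.37-fold with T3 and 1.21-fold with GC-1 (adjusted p = 0.00141 and 0.0410), and the GC-1 call held in 6 of 15 alternatives. The dimmer CITED2 probe set 207980_s_at differed by 0.34 with T3, which passed, and by 0.20 with GC-1 (adjusted p = 0.00275 and 0.0670). The hydroxylases EGLN1 and EGLN3, themselves HIF targets, differed by 0.17 and 0.14 with T3 and by 0.12 and 0.14 with GC-1 (adjusted p = 0.111 or above). ARNT differed by 0.08 with T3 and 0.17 with GC-1, and VHL by 0.08 and 0.09 (adjusted p = 0.184 or above).

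A wider list of 55 other hypoxia-inducible genes had 52 measured members. With T3 17 rose and 2 fell, where 4.51% of all genes rose and 1.71% fell. With GC-1 6 rose and 1 fell, where 2.10% of all genes rose and 1.16% fell. The median difference was 0.16 with T3 and 0.07 with GC-1, beside -0.02 and 0.00 in size over all genes. The counts moved with the settings, from 10 to 26 higher with T3 and from 3 to 16 higher with GC-1. The list was drawn up with earlier results of these data known.

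The largest increases on that list were in ANGPTL4, GBE1, LOX and DUSP1. GBE1, the glycogen branching enzyme, read 11.77, 11.77 and 11.77 in T3 cells, 11.67, 11.66 and 11.61 in GC-1 cells and 10.87, 10.84 and 10.79 in vehicle cells. It rose 1.92-fold with T3 and 1.76-fold with GC-1 (adjusted p = 9.65e-07 and 4.54e-06). LOX, the secreted lysyl oxidase, rose 1.90-fold and 1.66-fold (0.93 and 0.73, adjusted p = 2.96e-06 and 2.87e-05), and its other 2 probe sets also passed with both ligands. DUSP1, a phosphatase of stress kinases, rose by 0.54 with T3 and 0.33 with GC-1 (adjusted p = 0.000547 and 0.0197), though its dimmer probe set 201044_x_at differed by 0.20 and 0.05 (adjusted p = 0.270 and 0.863). ANGPTL4, an inhibitor of lipoprotein lipase, differed by 1.02 with T3 and 0.70 with GC-1 (adjusted p = 8.52e-06 and 0.000182).

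SLC2A1, the glucose transporter GLUT1 and a textbook HIF-1 target, went the other way. It read 10.82, 10.85 and 10.82 in T3 cells, 10.97, 10.98 and 10.94 in GC-1 cells and 11.75, 11.66 and 11.78 in vehicle cells, with no overlap of the groups. Its difference was -0.90 with T3 and -0.76 with GC-1 (adjusted p = 2.00e-06 and 1.02e-05), and its other probe set 201249_at gave -1.05 and -0.81. TGFA, a growth factor, was the other gene that fell with T3 (-0.32, adjusted p = 0.0198), in 1 of its 3 probe sets. With GC-1 the 6 that rose were GBE1, LOX, ANGPTL4, DUSP1, ERO1A and VLDLR. The GC-1 calls of GBE1, LOX and ANGPTL4 held in all 15 alternatives, those of DUSP1, VLDLR and ERO1A in 10, 9 and 8 (adjusted p up to 0.0907, 0.114 and 0.124). ERO1A is an oxidase of protein folding, and VLDLR a lipoprotein receptor.

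The list held 14 measured glycolytic enzymes, grouped after their values were seen. With T3 3 of them rose, 0 fell and 11 did not pass, where 4.51% of all genes rose and 1.71% fell. With GC-1 0 rose and 0 fell, where 2.10% of all genes rose and 1.16% fell. Those that rose with T3 were ALDOC, PFKL and GPI, by 0.43, 0.27 and 0.26 (adjusted p = 0.0245, 0.0284 and 0.0307). With GC-1 these 3 differed by 0.25, 0.19 and 0.17 (adjusted p = 0.215, 0.156 and 0.201). LDHA differed by 0.04 with T3 and 0.05 with GC-1 (adjusted p = 0.664 and 0.683), with mean signals of 14.05 in T3 cells, 14.06 in GC-1 cells and 14.01 in vehicle cells, near the top of the range. PGK1 differed by 0.18 with each ligand in its brightest probe set (adjusted p = 0.102 and 0.145), while its probe set 200737_at rose by 0.34 with T3 and 0.27 with GC-1 (adjusted p = 0.00215 and 0.0150). EPO, the erythropoietin gene, was singled out after its values were seen. It read 7.92, 8.00 and 8.01 in T3 cells, 7.63, 7.60 and 7.77 in GC-1 cells and 7.61, 7.64 and 7.56 in vehicle cells. GC-1 arrays overlapped vehicle and lay below T3. EPO rose with T3 (0.38 ± 0.06, adjusted p = 0.00309) and differed by 0.07 with GC-1 (adjusted p = 0.640). GC-1 minus T3 was -0.31 (adjusted p = 0.175).

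**Figure D3:**
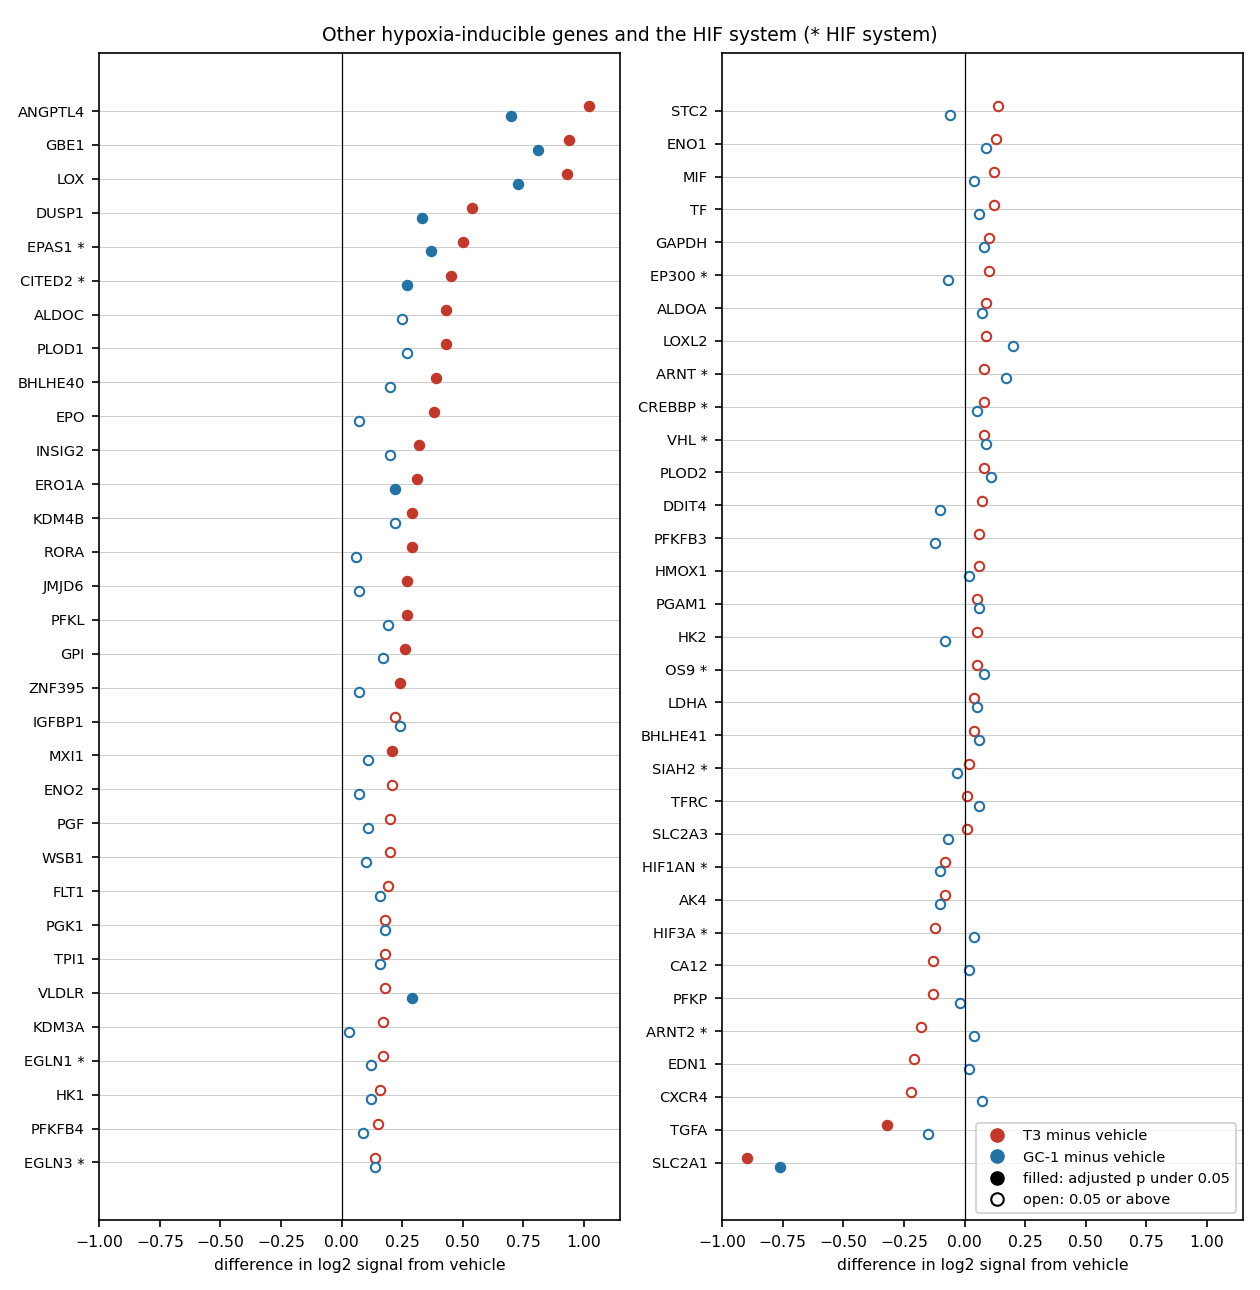
Difference in log2 signal from vehicle (horizontal axis) for the measured genes of both lists, 52 other hypoxia-inducible genes and 13 of the HIF system (marked with a star), 1 probe set a gene, ordered by the T3 difference from top left to bottom right. Filled points passed at an adjusted p under 0.05 in limma (n = 3 arrays a group). ANGPTL4, GBE1 and LOX lie farthest to the right under both ligands and SLC2A1 farthest to the left.

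The direct comparison of GC-1 with T3, the 1 pair of compounds in the series, was made at the matched dose and time. Of the 14 probe sets 0 passed in limma, and likewise 0.00% of all probe sets in either direction. At an unadjusted p under 0.05, 6 of 14 members and 14.1% of all probe sets were counted. The difference was below 0 in 13 of the 14 probe sets, against 52.0% of all probe sets, and HIF1A was the exception. With quantile normalization it was below 0 in 10, the other exceptions being P4HA2 (0.04), BNIP3L 221478_at (0.01) and BNIP3 201849_at (0.00), and without T3 replicate 3 these probe sets were again above 0 (0.03, 0.02 and 0.03). GC-1 arrays lay entirely below T3 arrays in 5 of them, against 10.1%, and entirely above in 1, HIF1A, against 7.90%. The median over the 14 was -0.12, beside 0.00 in size over all probe sets.

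The widest gaps were in ADM, NDRG1 and VEGFA. ADM averaged 9.49 ± 0.01 in GC-1 cells and 9.80 ± 0.07 in T3 cells (SD, n = 3), a difference of -0.31 (95% interval -0.42 to -0.20, adjusted p = 0.163), which ranked 9 by p among 22215 probe sets. NDRG1 averaged 10.33 ± 0.02 in GC-1 cells and 10.58 ± 0.02 in T3 cells (-0.25, interval -0.35 to -0.14, adjusted p = 0.175), rank 30. VEGFA (210512_s_at) averaged 10.37 ± 0.04 in GC-1 cells and 10.59 ± 0.03 in T3 cells (-0.22, interval -0.33 to -0.12, adjusted p = 0.176), rank 79. These 3 passed with trend and robust moderation (adjusted p = 0.0131, 0.0209 and 0.0375). ADM and NDRG1 also passed without T3 replicate 3 (adjusted p = 0.0348 and 0.0489), a fit in which 338 probe sets were called.

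Other members lay closer together, and the interval bounds how far apart they may be. P4HA2 differed by -0.01 (interval -0.16 to 0.13, or 0.90-fold to 1.10-fold). P4HA1 differed by -0.07 (-0.21 to 0.06), BNIP3 (201849_at) by -0.03 (-0.16 to 0.11) and BNIP3L (221478_at) by -0.03 (-0.17 to 0.12), the signs being those of the deposited scaling. The second BNIP3L probe set differed by -0.18 (-0.32 to -0.03, adjusted p = 0.287). PDK1 differed by -0.08 (-0.21 to 0.05) and HIF1A by 0.11 (-0.03 to 0.24, adjusted p = 0.443). A missed threshold does not show that GC-1 and T3 act alike on these genes.

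**Figure D4:**
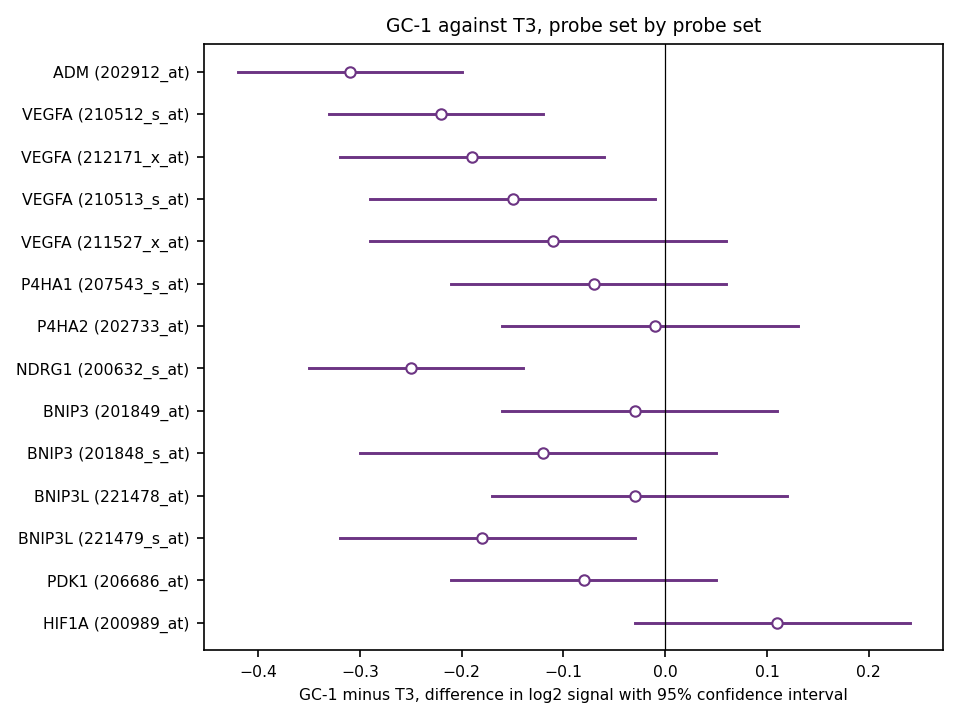
GC-1 minus T3 difference in log2 signal (horizontal axis) for each of the 14 probe sets, with 95% confidence intervals from limma (n = 3 arrays a group). All points are open because none passed at an adjusted p under 0.05. The intervals of ADM, NDRG1 and 3 of the 4 VEGFA probe sets lie below 0, as does that of BNIP3L 221479_s_at, and HIF1A has the only point above 0, in the deposited scaling.

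Within a group, most of the 14 probe sets shared their highest array, though not all did. The share over all probe sets was not counted for these standings. T3 replicate 3 was the highest T3 array in 11 of 14 probe sets, but the lowest in ADM, P4HA1 and HIF1A. GC-1 replicate 1 was the highest GC-1 array in 11 of 14. Vehicle replicate 2 was the highest vehicle array in 8 of 14, and vehicle replicate 3 the lowest in 10. T3 replicate 3 and GC-1 replicate 1 also had the smallest difference between the 3′ and 5′ control probe sets of GAPDH, 0.188 and 0.170 against 0.204 to 0.265 on the other arrays, and of ACTB, 0.123 and 0.083 against 0.135 to 0.281. Among the vehicle arrays, replicate 2 had the smallest difference, 0.204 for GAPDH and 0.135 for ACTB. The part of these end differences in the results was not tested. The mean distance of the 14 probe sets from the vehicle mean was 0.31, 0.30 and 0.38 on the T3 arrays, 0.27, 0.18 and 0.20 on the GC-1 arrays and 0.01, 0.04 and -0.05 on the vehicle arrays. On this mean the T3 arrays lay above the GC-1 arrays, and all 6 above vehicle.

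Genes most like ADM were sought by the root mean square distance between log2 differences from vehicle on the 6 ligand arrays, over 11962 other genes. The closest were IGFBP3 (0.058 log2 units), PHF21A (0.064), CYP4F2 (0.071), GADD45B (0.080) and GPX3 (0.083). They encode a carrier of insulin-like growth factors, a chromatin protein, a fatty acid hydroxylase, a stress sensor and a secreted glutathione peroxidase. IGFBP3 has a second probe set, 212143_s_at, which differed by 0.14 with T3 and 0.12 with GC-1, against 0.59 and 0.30 in the first. Among the members, VEGFA ranked 27 in this list, P4HA1 56, NDRG1 66, P4HA2 239, BNIP3L 283, BNIP3 425, HIF1A 499 and PDK1 632.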

How the data were processed

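HepG2 RNA was measured on 9 Affymetrix arrays (T3, GC-1 and vehicle, 3 each), grouped by sample title. The authors deposited log2 signals, 1 per probe set and array, and the submitters' processing notes name RMA without a version. The log base was taken from the values (3.15 to 14.54) and is not stated in the sources used here. Scanner files, dates and detection calls were not used. From these values, 62 array controls were left out. The annotation gave 1 symbol to 19064 of the 22215 remaining probe sets, several to 1043 and none to 2108, and the Entrez identifiers of 19052 matched the RefSeq table with 0 symbols updated. For lists, each of 11963 genes was read from its brightest probe set over the 9 arrays. The test was two-sided, from lmFit and eBayes of limma (version 3.58.1, R 4.3.3) fitted to the 9 arrays with a mean for each group, with Benjamini-Hochberg adjustment over all 22215 probe sets and 95% intervals. The code was tested on simulated data. Arrays identical in every value numbered 0 pairs, and precision is limited by having 3 arrays a group.

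The members, lists, alternatives and rule for named genes were chosen with earlier results of these data known. Named genes are all member probe sets, KLF9, the 5 genes closest to ADM, the 5 list genes with the largest called difference per comparison, and list members that account for small counts. Other list genes, such as the EGLN genes, PDK2 to PDK4, the receptors, P4HB, PINK1, PLOD1, EPO and the glycolytic enzymes, were named for their roles after their values were seen. The lists cover the HIF system, other hypoxia-inducible genes, collagen hydroxylation, pyruvate dehydrogenase control, VEGF and adrenomedullin partners, and mitophagy. They are described by counts and medians without a set test. Alternatives were quantile normalization, a filter on the dimmest 25% of probe sets, trend and robust moderation, array weights, the replicate number as a block, the interquartile range as a covariate, and leaving out each array. Their use on list counts and list genes was added after seeing the data.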

Additional observations from a re-analysis of the deposited data

How the results depend on the processing

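In all 420 refits of the 14 probe sets against vehicle, T3 and GC-1 differences kept their sign, and the median of all probe sets with T3 was -0.01 in both the deposited and the quantile scaling. Calls were less stable. Against vehicle, T3 called 11 member probe sets and 1222 in all. Trend and robust moderation gave 14 members and 1957 in all, and the replicate block 7 members and 773 in all. The interquartile range as a covariate gave 11 members and 2084 in all (932 higher, 1152 lower, against 888 higher and 334 lower). Leaving out 1 array gave 5 to 10 members and 661 to 1356 in all, the member counts being 7 without T3 replicate 1 and 6, 7 and 5 without vehicle replicate 1, 2 and 3. GC-1 called 5 members and 622 in all. This became 8 and 1347 with trend and robust moderation, 9 and 1435 with array weights, 2 and 347 with the replicate block, and 3 members with the covariate. Leaving out 1 array gave 0 to 8 members and 274 to 1272 in all, with 0, 1 and 2 members without GC-1 replicate 1, 2 and 3, 1 without each vehicle replicate and 8 without T3 replicate 3. GC-1 minus T3 called 0. Trend and robust moderation called 3 members and 22 in all, and leaving out 1 array 0 to 2 members and 0 to 338 in all, above 0 only without T3 replicate 3. The causes were not tested.

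ADM, NDRG1, P4HA1 and the VEGFA probe sets 210512_s_at and 212171_x_at passed with T3 in all 15 alternatives, and EPAS1, GBE1, LOX, ANGPTL4 and SLC2A1 with both ligands. P4HA1 with GC-1 missed in 1 of 15, without GC-1 replicate 1 (adjusted p = 0.0525). Same-numbered arrays did not deviate together (9 correlations from -0.26 to 0.08, and 0 of 9 arrays correlated best with their own number). Some differently numbered arrays of different groups did, T3 replicate 3 with GC-1 replicate 1 at 0.29 and T3 replicate 2 with GC-1 replicate 3 at 0.26. T3 replicate 2 and GC-1 replicate 1 deviated in opposite directions, at -0.30. With 3 arrays a group, whether arrays shared a batch was not tested. The GC-1 minus T3 difference changed sign in P4HA2, BNIP3 201849_at and BNIP3L 221478_at under some settings, without a call. A fit without 1 array leaves that group with 2. Dim probe sets such as those of VHL and CALCRL are compressed by RMA, and their small differences are weak evidence of no change.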
